A study of Mus musculus with 145 samples.

Results

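The sites described here are transposon insertion positions that do not lie at TTAA, the 4-base sequence at which the piggyBac transposon inserts. A site was a member when the 4 bases before its position, given by the deposited site table, were not TTAA and when it had reads in at least 1 library. By this rule 27961 of 186375 sites with reads were members (15%), and the other 158414 sites lay at TTAA. A further 2291 deposited sites outside TTAA had 0 reads in every library and were left out. A site can have reads in several libraries, and each combination of a site and a library is called a pair below. The members made 35011 pairs, against 198609 pairs at TTAA, and held 629927 of 20479339 reads (3.08%).

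The libraries were made from genomic DNA of 145 mouse mammary tumours. Every mouse, in both groups, carried WAP-Cre, a Cre-dependent piggyBac transposase (LSL-PB), a Cre-dependent mutant PI3-kinase gene (LSL-PIK3CA(H1047R)) and the transposon donor ATP1. The WAP promoter is a milk-protein promoter that is switched on in the mammary gland in late pregnancy, so the mice were mated to start both transgenes there. The untreated group had 94 tumours from 23 mice. The resistant group had 51 tumours from 25 mice that were given 30 mg/kg of BYL719 (alpelisib, an inhibitor of PI3K alpha) each day from a tumour volume of 250 mm3. Its tumours had grown over at least 3 consecutive measurements within 3 weeks of treatment. Mouse identities were read from the sample titles, which name 48 mice where the labels' protocols state 53, and the study asked where transposons had landed in tumours that grew under the drug.

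PiggyBac is a cut-and-paste DNA transposon. Its transposase opens a TTAA in the target, joins the transposon to the staggered ends, and leaves a TTAA on each side of the insert. Insertion at other 4-base sequences is known but rare. Whether a given member was an insertion at other letters was not tested.

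A few libraries and positions stood apart. Resistant tumour 26 listed 17825 sites, of which 10379 lay outside TTAA (58.2%), and it alone held 59.6% of the resistant pairs outside TTAA. Of its members, 9945 had 1 read. The main shares and context counts are therefore given with and without it below, other counts include it, and tests weigh each mouse equally. Without it there were 17868 members. There were 3 TTAA positions that had reads in 51 of 51 resistant and 0 of 94 untreated libraries, with medians of 17066, 9783 and 12432 reads in the resistant libraries, and members beside them were found in resistant libraries only. Library totals ran from 51 to 1604365 reads in the resistant group (median 136932) and from 2950 to 938987 in the untreated group (median 48339). Titles had 4 forms, and no form held both groups, so the form of the title and the treatment cannot be told apart.

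The members fell into 3 classes that differed in their letters. The first lay within 10 bp of a TTAA site of the same library and strand (4682 sites), the second lay in 4 windows of 100 kb made up mostly of members (978 sites), and the third lay elsewhere (22301 sites). Without resistant tumour 26 the classes held 4437, 941 and 12490 sites. These classes were chosen after the values were seen. The 8 letters below run 5′ to 3′ on the strand of the site. Capitals mark the 4 bases before the position, the place that the target letters take at TTAA sites. The first set shows what a position looks like 1 base to either side of the shared TTAA position in Sox6 (chr7:115706530, minus strand), and the same letters slide through the frame:
TTAA site in Sox6: TTAAagtt
1 base downstream: TAAAgttt
1 base upstream: TTTAaagt
2 bases downstream: AAAGtttt

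The second set shows members elsewhere, with no TTAA site of their library and strand within 100 bp. They are the members with 1 mismatch to TTAA that had the most reads in a single library:
chr10:19500177, minus strand, resistant tumour 44: TTAGaatt
chr5:25391395, plus strand, Kmt2c, resistant tumour 26: ATAAatca
chr15:50825934, minus strand, Trps1, resistant tumour 13: TTAGtaaa
chr3:135081372, minus strand, untreated tumour 45: TTGAcaca
chr10:48262865, plus strand, untreated tumour 28: TTATaatt
chr10:42273647, minus strand, Foxo3, untreated tumour 45: ATAAataa

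The third set shows well-read members of the dense windows and, as its last line, the member found in the most libraries:
chr9:3023516, plus strand, untreated tumour 1: TCAGtgat
chr2:98666752, plus strand, untreated tumour 35: TTTAgaaa
chr2:98666716, plus strand, 125 libraries: TGAAatat

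The letters were checked against RefSeq promoter windows of build GRCm38.p6. Of 873 TTAA sites inside such a window, 857 had their 8 letters starting 4 bases before the position, and so had 73 of 77 members. Here 5 members placed with 1 mismatch and at least 10 reads are shown in their genomic sequence, with the same 4 bases in capitals:
Olfr1221 promoter, chr2:89112606-89112635, minus strand: caattattgtaatTTAGcataaggatgagc
Polr3b promoter, chr10:84622198-84622227, plus strand: ggaaatgagcctgTCAAgaggctaggatta
Mrpl20 promoter, chr4:155802740-155802769, plus strand: tctttttctttttTAAAaagatttattata
H2bc18 promoter, chr3:96269723-96269749, plus strand: ttacgttgcatctTTAGacgcggagga
Rbm47 promoter, chr5:66151937-66151966, minus strand: tcttctagtttgtTTAGtcacagaattcga

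The Olfr1221 site, in front of an olfactory receptor gene, had 378 reads in resistant tumour 48. The nearest TTAA letters on its strand in the window started 113 bases away. The Polr3b site, at a gene for a subunit of RNA polymerase III, had 76 reads in untreated tumour 21, with TTAA letters 137 bases away. The Mrpl20 site, at a mitochondrial ribosome gene, had 66 reads in resistant tumour 6, and the genome reads TTAA starting 1 base before its context, although that library listed no TTAA site within 10 bp. The H2bc18 site, at a histone gene, had 22 reads in untreated tumour 29, and its window held 0 TTAA. Among the 73 placed members, 27 had TTAA letters starting within 10 bases of their context. The search word TTAA, which is its own reverse complement, was present in 52.4% of all 32815 promoter windows of the same length, and TTAG, on either strand, in 73.3%.

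Across all members 254 contexts were seen, and the 12 most common made up 55.1% of the sites. TAAA led with 3432 sites, followed by AAAA with 3018, ATAA with 1571, CTAA with 1187, TTTA with 1101, TCAA with 915 and TTAG with 907. The next were TGAA with 745, GAAA with 703, TTAT with 675, AGAA with 659 and GTAA with 505. Without resistant tumour 26, TAAA (2723), AAAA (1714) and ATAA (930) still led, but TTTA (808) came before CTAA (782) and TTAG (672) before TCAA (440). Also without it, TTAT had 403 sites, TGAA 393, AGAA 325, GAAA 317 and GTAA 275. The same 12 contexts then made up 54.7%, and 11 of them were still among the 12 most common. Of the members, 43.6% differed from TTAA at 1 base, and 45.3% did so when resistant tumour 26 was left out. The order of these contexts depended on the class. TAAA was 45.8% of the members next to TTAA, where it is what a TTAA followed by A looks like 1 base downstream, but 5.66% of the members elsewhere.

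Members elsewhere with many reads were richest in contexts that keep the middle TA of TTAA. Of 716 such members with at least 100 reads in a library, 83 had TTAG, 71 CTAA, 55 ATAA and 35 TTAT. Without resistant tumour 26 these counts were 80, 71, 51 and 30 of 671. For comparison, the 4 bases after the target at TTAA sites give a rough level for the same letters nearby. They were TTAG at 0.362% and CTAA at 0.334% of these sites, whereas the same words made up 11.6% and 9.92% of the well-read members. GTAA, at 0.804% of the following bases, was 1.4% of the well-read members, with 10 sites. The change fell on an outer base (base 1 or 4) in 262 of the 350 well-read members with 1 mismatch (74.9%), and in 250 of 332 without resistant tumour 26 (75.3%). In single-read members elsewhere the outer bases made up 50.6%, and in members next to TTAA 1.54%.

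**Figure D1:**
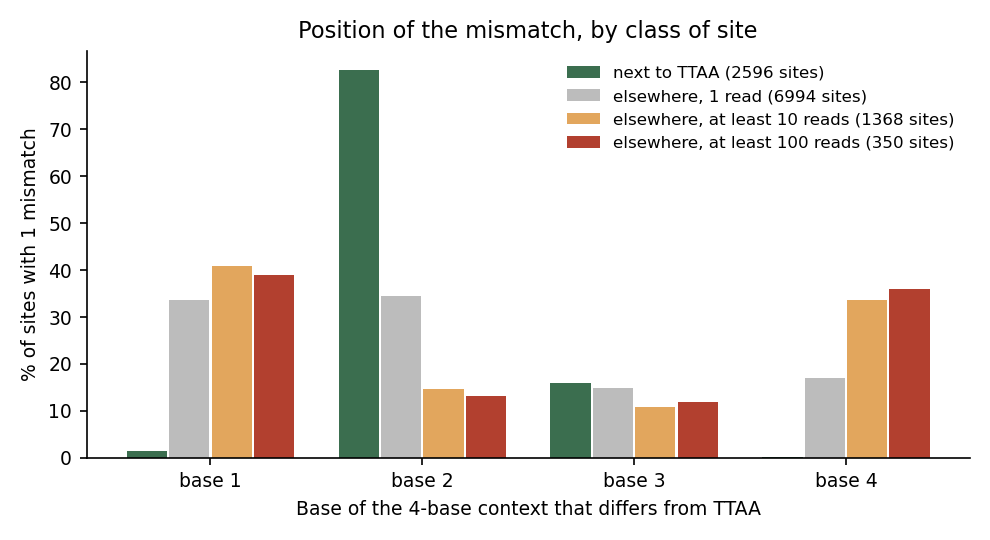
The bars give, for members with 1 mismatch to TTAA, the percent whose mismatch falls on each of the 4 bases (x axis), for members next to a TTAA site and for members elsewhere by their highest read count in a library. Next to TTAA the mismatch lies mostly on base 2 (2144 of 2596 sites), and elsewhere with at least 100 reads it lies mostly on base 1 (136 of 350) and base 4 (126 of 350).

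Contexts that are reverse complements of each other were more evenly matched among well-read members. TTAG and CTAA had 83 and 71 sites at 100 reads or more, against 432 and 722 sites among single-read members elsewhere. ATAA and TTAT had 55 and 35 sites, against 1215 and 454. TCAA and TTGA had 16 and 11 sites, against 792 and 311. Without resistant tumour 26 the single-read counts were 329 CTAA and 206 TTAG, 591 ATAA and 191 TTAT, and 323 TCAA and 134 TTGA, so the A-rich form of each pair was the more frequent one there too. These are counts of sites, described without a test.

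The bases after the position also changed with the read count. Of all members 40.5% were followed by AAAA, against 4.5% of TTAA sites, and the share was 34.7% without resistant tumour 26. Among members elsewhere, AAAA followed 50.1% of those with 1 read and 5.03% of those with at least 100 reads. The corresponding shares of TTAA sites were 14.7% and 2.53%. Members elsewhere with at least 100 reads were not limited to near matches, since 171 differed from TTAA at 2 bases, 152 at 3 and 43 at 4.

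A TTAA site of the same library and strand lay within 10 bp of 4936 of the 35011 pairs outside TTAA (14.1%). It lay within 1 bp of 3767 pairs (10.8%). Widening the distance to 100 bp added few pairs, for a total of 4972 (14.2%). Pairs at TTAA had another TTAA site within 10 bp in 0.00705% of cases. A TTAA cannot start 1 to 3 bases from another TTAA on its strand, so the TTAA value is fixed at 0 there. Most neighbours of members lay at these distances, so the direction of the comparison below was largely set by the letters. In the mean over mice, 21.1% ± 11.7 (SD, n = 48 mice) of members and 0.00717% ± 0.0215 of TTAA sites had such a neighbour. The difference of 21.1 percentage points was positive in 48 of 48 mice (sign-flip permutation test over mice, two-sided, p = 1e-05, the smallest it can give, adjusted p = 2e-05 over 10 tests). It was 9.39 with a minimum of 10 reads, positive in 38 of 42 mice, and 11.4 with each library thinned to 10000 reads (p = 1e-05 for both).

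The neighbours were not spread evenly around the TTAA site. Of the 4936 pairs, 2960 (60%) lay exactly 1 base downstream, 807 lay 1 base upstream, 456 lay 2 bases downstream and 210 lay 2 bases upstream. The letters of every pair 1, 2 and 3 bases downstream were those of the TTAA site shifted by the same number of bases (2960, 456 and 150 pairs). Positions so close on a strand must share their letters, so this match checks only the coordinates. Neighbours 1 base upstream were followed by AAAA in 80% of pairs, and those 1 base downstream in 32.2%. The median distance over all pairs of members, neighbours included, was 458838 bp, against 628348 bp from a TTAA site to the next TTAA site. The order differed between the groups, with medians of 287706 bp for members and 591195 bp for TTAA sites in resistant libraries, and 904307 bp and 649204 bp in untreated libraries. Resistant tumour 26 decided the pooled order, since without it the resistant medians were 636844 bp and 691941 bp and the median of members in both groups was 839954 bp.

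**Figure D2:**
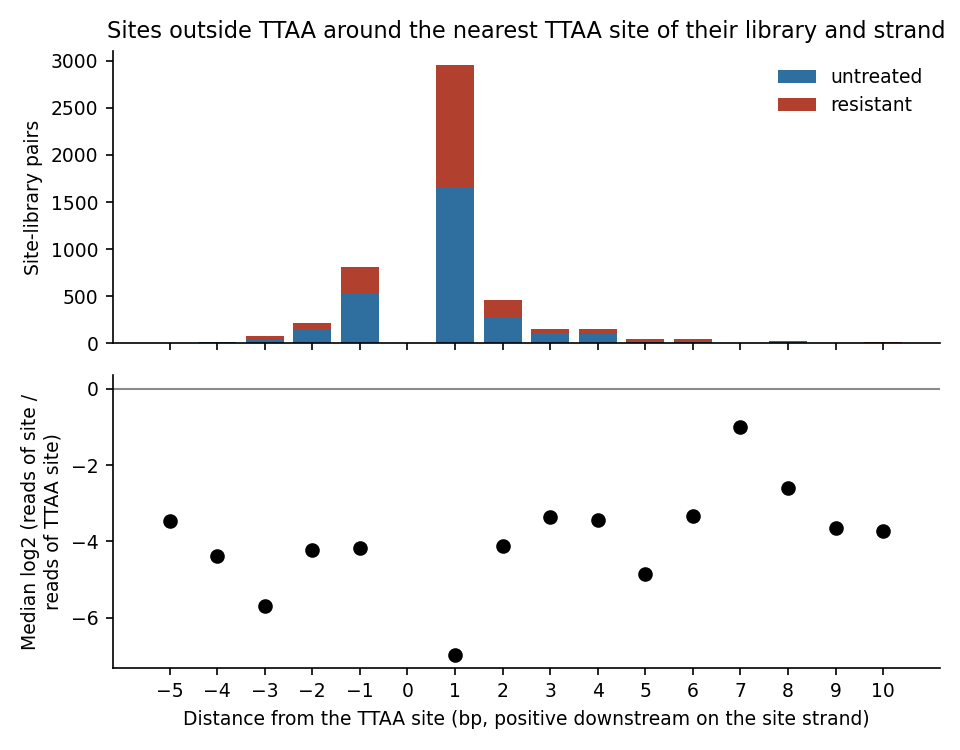
The upper panel counts pairs of a member and a library by distance in bp from the nearest TTAA site of the same library and strand, stacked by group, and the lower panel gives the median log2 ratio of the reads of the member to those of the TTAA site. The peak at 1 base downstream holds 2960 pairs with a median log2 ratio of -6.96, and the ratio is below 0 at every distance drawn.

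Members next to TTAA had far fewer reads than the TTAA site beside them. Their median was 1 read, against 95 reads for the neighbour, and the median log2 ratio was -5.64 (quartiles -8.45 and -3.04). In 211 pairs (4.27%) the member had more reads than its neighbour, and 36 pairs reached 100 reads. Over mice the per-tumour median log2 ratio was -7.46 ± 2.03 in resistant (n = 21) and -5.5 ± 1.96 in untreated mice (n = 19). The difference was -1.96 (permutation over mice, p = 0.00423, adjusted p = 0.00604). The neighbours themselves had more reads in the resistant libraries, with medians of 272 and 63 reads, while the members had a median of 1 read in both groups. A member cannot have fewer than 1 read, so its ratio is bounded by the reads of its neighbour. The difference was -0.602 (p = 0.386) when sites followed by AAAA were left out and -1.49 (p = 0.0549) without chromosome 10. Without the 3 shared positions and the sites beside them it was -1.37 (p = 0.0489).

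The share of members with a TTAA neighbour was higher in the resistant mice, at 25.8% ± 13.9 (n = 25) against 16% ± 5.58 (n = 23). Tumours of the resistant group ran from 2.59% to 57.9% with a median of 24.3%, and untreated tumours ran from 0% to 46.4% with a median of 13.6%, so the groups overlapped widely. The difference of 9.79 percentage points passed the permutation over mice (p = 0.00218, adjusted p = 0.00363). It was 1.27 (p = 0.46) with each library thinned to 10000 reads, 1.25 (p = 0.699) with only the most common title form of each group, and 0.217 (p = 0.949) with a minimum of 10 reads. It was 6.48 (p = 0.0241) without the 3 shared positions and the sites beside them.

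Members were concentrated among sites with few reads. A single read was the whole support of 68.4% of the pairs outside TTAA and of 26.9% of the pairs at TTAA, and the medians were 1 and 10 reads. Of pairs with 1 read, 30.9% lay outside TTAA (95% Clopper-Pearson interval 30.6 to 31.2, counting error only). That share was 11.8% at 2 to 9 reads, 5.07% at 10 to 99 reads, 4.13% from 100 to under 1000 reads and 3.14% at 1000 reads or more (interval 2.39 to 4.04). Reads of a PCR product were counted here without molecular identifiers, so they are not independent. Without resistant tumour 26 the share at 1 read was 22.4%, and in the resistant group alone it fell from 41.8% to 21.1%.

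**Figure D3:**
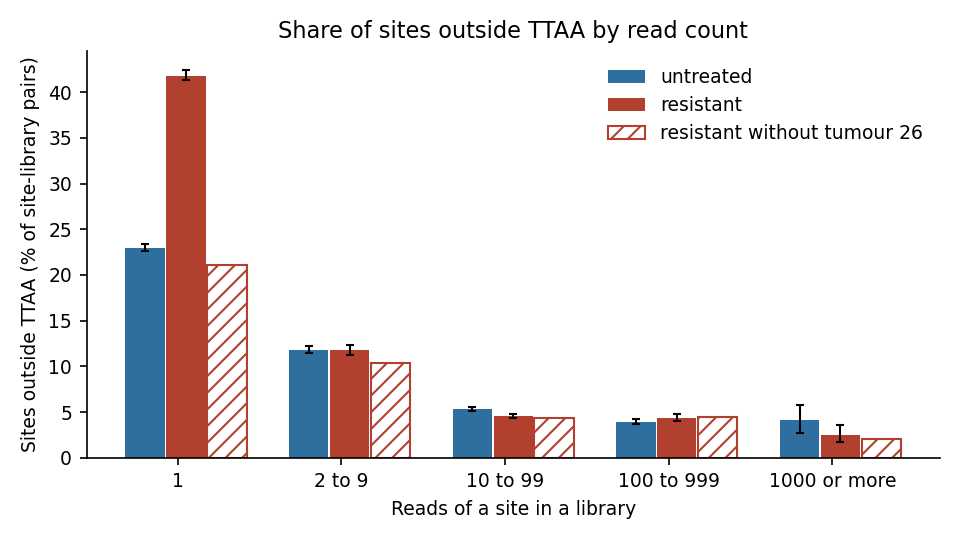
The bars give the percent of site-library pairs that lie outside TTAA by the reads of the pair, for both groups, with 95% Clopper-Pearson intervals, and hatched bars give the resistant group without tumour 26, drawn without intervals. The share falls from 23% at 1 read to 3.97% from 100 to under 1000 reads in untreated tumours, and in the resistant group the bar at 1 read is 41.8% with and 21.1% without tumour 26.

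Members with no TTAA site of their library and strand within 100 bp also had fewer reads than TTAA sites. Their mean log10 read count was 0.573 ± 0.157 against 1.09 ± 0.233 at TTAA (n = 47 mice). The difference of -0.517 was negative in 47 of 47 mice, with 0 mice higher outside TTAA (sign-flip permutation, p = 1e-05, adjusted p = 2e-05). It was -0.545 in resistant and -0.488 in untreated mice. With each library thinned to 10000 reads it was -0.234, and with a minimum of 10 reads it was -0.137, with 3 of 40 mice higher outside TTAA (p = 1e-05 for both).

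The share of sites outside TTAA did not pass the test between the groups. It was 14% ± 5.25 in resistant mice (n = 25) and 12.2% ± 4.5 in untreated mice (n = 23), a difference of 1.73 percentage points (permutation over mice, p = 0.234, adjusted p = 0.26). Resistant tumours ran from 0% to 58.2% with a median of 13.3%, and untreated tumours from 3.57% to 43.7% with a median of 10.9%. Without resistant tumour 26 the difference was 1.17 (p = 0.348). With a minimum of 10 reads it was 1.91 (p = 0.0301), and without the 4 windows 2.82 (p = 0.0392). Without the windows and the sites followed by AAAA it was 3.27 (p = 0.00088), and with each library thinned to 10000 reads 0.553 (p = 0.592).

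Members held a smaller share of the reads in the resistant group, but not when the 3 shared TTAA positions were left out. The share was 2.39% ± 0.957 in resistant and 4.61% ± 1.51 in untreated mice, a difference of -2.22 percentage points (permutation over mice, p = 1e-05, adjusted p = 2e-05). Resistant tumours ran from 0% to 4.67% with a median of 2.07%, and untreated tumours from 0.0287% to 20.9% with a median of 4.71%. When the 3 positions and sites within 10 bp of them were left out, the difference was 0.1 (p = 0.895). When each position was counted only in the library with the most reads there, it was -0.453 (p = 0.679). The difference was -2.24 without resistant tumour 26.

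**Figure D4:**
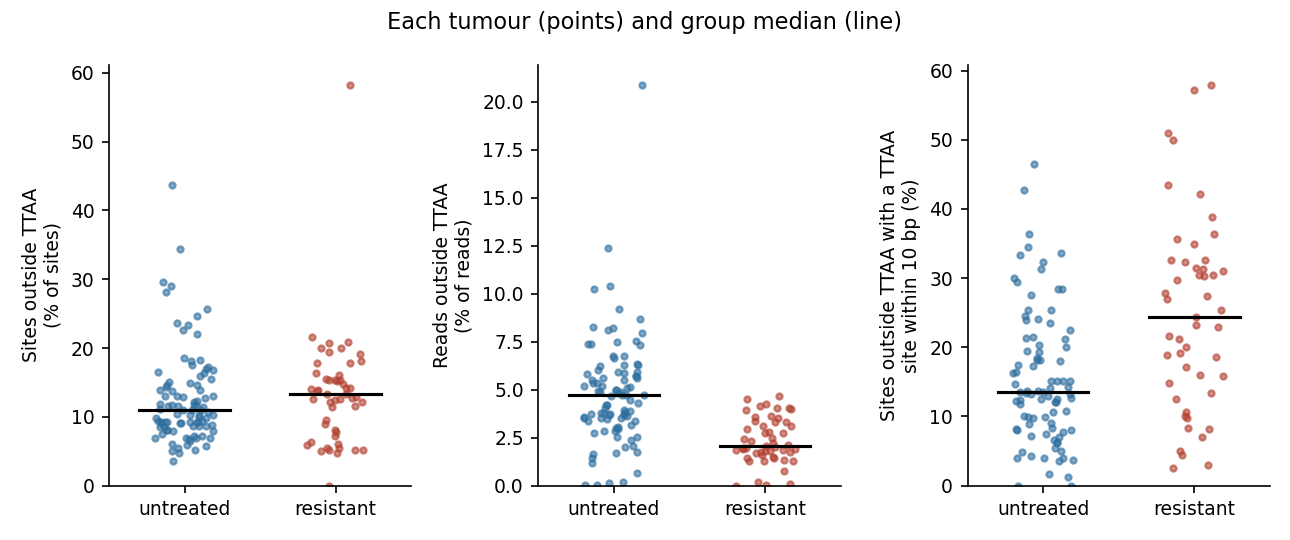
Each point is a tumour and each line a group median, for the percent of sites outside TTAA, the percent of reads outside TTAA and, in tumours with at least 20 members, the percent of members with a TTAA site within 10 bp. Median shares of reads are 4.71% in untreated and 2.07% in resistant tumours, and resistant tumour 26 is the highest point of the left panel at 58.2%.

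Of 36 contexts with at least 100 sites, 6 differed between the groups (16.7% called, permutation over mice, Benjamini-Hochberg adjusted p at most 0.05). Higher shares of members in resistant mice were found for TAAG (2.23% against 1.16%), TAAT (1.87% against 0.826%), AAAG (1.38% against 0.41%) and TAAA (16.8% against 12.3%), or 11.1% of the contexts tested. Lower shares were found for CTAA (4.58% against 6.06%) and TGAA (6.48% against 8.95%), or 5.56%. Adjusted p-values lay between 0.0389 and 0.0499. TAAA and AAAG are also the contexts 1 and 2 bases downstream of the shared Sox6 and Cradd positions, and without the shared positions and the sites beside them 2 contexts passed, both higher in resistant mice. The 2 that passed after thinning to 10000 reads, the 2 that passed with the common title forms and the 1 that passed without the windows were lower in resistant mice, and without chromosome 10 0 of 32 passed (7 at an unadjusted p under 0.05). With a minimum of 10 reads 0 of 7 contexts passed (1 at an unadjusted p under 0.05). The share of members with 1 mismatch was 52.7% ± 8.4 in resistant and 56.8% ± 7.28 in untreated mice. The difference of -4.15 did not pass (permutation over mice, p = 0.0738, adjusted p = 0.0923). With a minimum of 10 reads it was -9.11 (p = 0.00879), but without the windows it was -1.64 (p = 0.48). When each position was counted only in the library with the most reads there, it was -0.836 (p = 0.719).

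Chromosome 10 held fewer members than TTAA sites. It held 9.23% of members and 19.9% of TTAA sites, and every other numbered chromosome except 13 and 15 held a larger share of members than of TTAA sites. In the mean over mice the shares on chromosome 10 were 9.85% ± 3.51 and 22.2% ± 3.46. The difference of -12.4 percentage points was negative in 47 of 48 mice, with 1 mouse higher outside TTAA (sign-flip permutation, p = 1e-05, adjusted p = 2e-05), and it was -8.76 (p = 1e-05) without the windows. The share on chromosome 10 rose with reads among members elsewhere, from 5.35% at 1 read to 15.2% at 100 reads or more, and from 13.3% to 22.8% among TTAA sites. Members next to TTAA had 20.8% of their sites on chromosome 10. The mitochondrial genome held 13 members and 1 TTAA site.

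**Figure D5:**
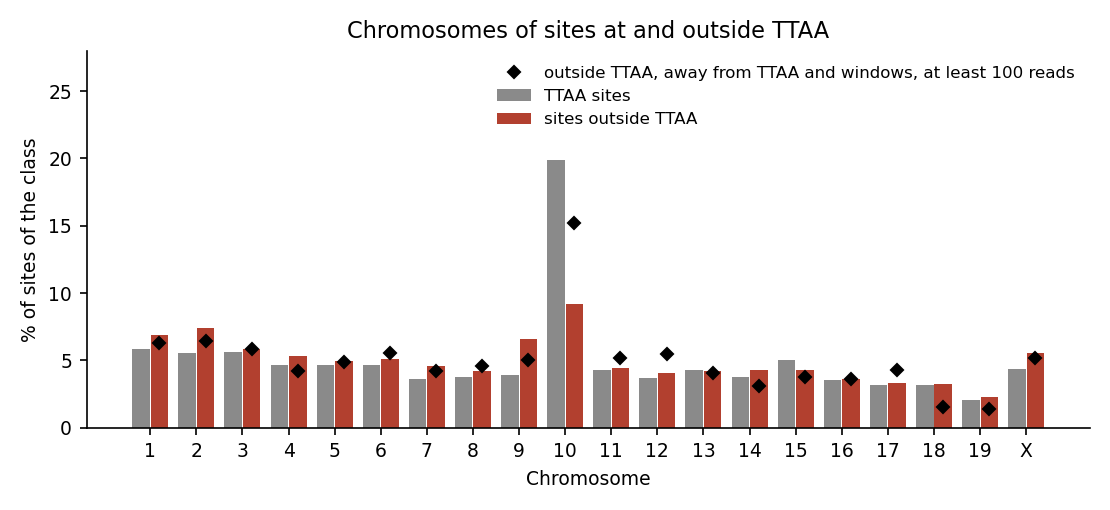
Bars give the percent of TTAA sites and of members on each chromosome, and diamonds the percent of members elsewhere with at least 100 reads. Chromosome 10 holds 19.9% of TTAA sites, 9.23% of members and 15.2% of the well-read members, and chromosomes 2 and 9, which carry 3 of the dense windows, hold 7.41% and 6.59% of members.

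The 4 windows of 100 kb made up mostly of members differed in size. On chromosome 9, positions 3000010 to 3038244 held 555 members among 558 sites, with reads in 137 libraries. On chromosome 2, positions 98662234 to 98667335 held 336 members among 339 sites, with 142015 reads in 144 of 145 libraries. The other two were chromosome 14, positions 19415725 to 19419411, with 47 of 50 sites, and chromosome 9, positions 35305227 to 35305584, with 40 of 48. The chromosome 2 window took a median of 0.313% of the reads of a resistant library and 1.19% of an untreated one. Its members recurred across libraries, and TGAAatat, shown above, had reads in 42 resistant and 83 untreated libraries, with 2391 reads at most. The 16 members with reads in the majority of libraries compare with 0 TTAA sites. The windows held 28.9% of the reads of members and lay in no gene region of the authors' table. Repeat annotation was not used here.

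Fewer members than TTAA sites lay inside a gene region of the authors' table. The shares were 40.9% and 48.6% of sites, and in the mean over mice 32.1% ± 7.21 and 49.2% ± 1.76 (n = 48). The difference of -17.1 percentage points was negative in 47 of 48 mice, with 1 mouse higher outside TTAA (sign-flip permutation, p = 1e-05, adjusted p = 2e-05). Without the windows it was -4.92 (p = 1e-05). Members next to TTAA lay in a gene in 51.9% of cases and members elsewhere with at least 100 reads in 44%, against 49.4% of TTAA sites with at least 100 reads. Members were present in 5231 of 13391 gene regions. How the authors chose these regions is not known here. Their percent for Nexmif in resistant tumours was 5.88%, where TTAA sites were in 3 tumours and members in 12. If genes were listed for hits at TTAA, members in unlisted genes would count as outside, and the comparison would favour TTAA sites. This was not tested.

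Of 315 genes with members in at least 5 tumours, 2 differed between the groups (0.635% called, permutation over mice, Benjamini-Hochberg adjusted p at most 0.05), and 0 were lower in resistant tumours. They were Sox6, a transcription factor gene (chr7:115470872-116040744), and Cradd, which encodes an adaptor protein with a death domain (chr10:95174746-95326133). For Sox6, 45 of 51 resistant tumours had members against 4 of 94 without the drug, and mouse means were 91.7% and 2.86% (adjusted p = 0.00158). For Cradd, 40 of 51 resistant tumours had members against 1 of 94 without the drug, and mouse means were 83% and 1.09% (adjusted p = 0.00158). Both genes hold a TTAA position found in 51 of 51 resistant libraries. The most frequent member in Sox6 is TAAAgttt, 1 base downstream of that position, with reads in 44 resistant libraries (lowest 1, median 5.5, highest 86). The most frequent one in Cradd is TAAAgaaa, 1 base downstream of chr10:95288284, in 40 resistant libraries (lowest 1, median 4, highest 82). The third shared position, chr11:67017939, lies in no gene region and had TAAAcaat beside it in 32 resistant libraries (lowest 1, median 2.5, highest 39). Without the shared positions and the sites beside them 0 of 315 genes passed (26 at an unadjusted p under 0.05).

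Further genes with small p did not pass, and several rested on 1 position that was well read in 1 library. Kmt2c, a histone methyltransferase gene (chr5:25271794-25500783), had members in 13 resistant tumours and 1 untreated tumour (25.3% and 0.725%, adjusted p = 0.256). Of the 13 members in Kmt2c, 10 lay next to TTAA. The gene had TTAA sites in 42 of 51 resistant and 46 of 94 untreated tumours. Its ATAAatca site had 3632 reads in resistant tumour 26, 711 in the next library and reads in 9 resistant libraries in all. Nexmif, a gene on the X chromosome (chrX:104077435-104203117), had members in 12 resistant and 2 untreated tumours (26% and 3.26%, adjusted p = 0.357). Its TTATaaca site had reads in 12 resistant libraries, 122 at most. Dab1, which encodes an adaptor of the reelin pathway, had members in 2 resistant and 16 untreated tumours (adjusted p = 0.194), and a GGAAacac site with 13 reads at most was in 8 of the untreated libraries. Shprh, a ubiquitin ligase gene, had members in 0 and 8 tumours (adjusted p = 0.194), and Pcdh7, a protocadherin gene, in 0 and 7 (adjusted p = 0.294). The TTAGagaa site of Gm3264 had 574 reads at most and was in 7 untreated libraries (adjusted p = 0.294), and a transcript region that overlaps it holds the same site.

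Such a spread of a well-read site over other libraries at low counts was common at TTAA as well. Of 35 members outside the windows with at least 1000 reads in a library, 26 had reads in other libraries, and so had 1373 of 1585 TTAA sites with as many reads. The 118 other pairs of these members were all of the same group as the best library, had a median of 1 read, and were at most 1% of the best library's reads in 106 cases (89.8%). For TTAA sites, 99.1% of 6925 other pairs were of the same group and 92.4% were at most 1%. The exchange of reads between libraries was not tested.

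Of the genes with members in the most tumours, Trps1 came after Sox6 and Cradd. Trps1, a zinc-finger repressor gene (chr15:50654759-50892041), held 38 members beside 675 TTAA sites, with members in 15 resistant and 12 untreated tumours (adjusted p = 0.619). Of these 38, 21 lay next to TTAA and 13 of the other 17 had 1 mismatch, among them TTAGtaaa with 3247 reads in resistant tumour 13, its 11th site by reads. Utrn, the utrophin gene, held 32 members beside 330 TTAA sites, in 7 resistant and 12 untreated tumours. Dmd, the dystrophin gene, held 30 beside 142, in 6 and 14 tumours, and Cntnap2, a neural adhesion gene, 27 beside 125, in 5 and 11. Chl1, another neural adhesion gene, held 8 beside 17, in 5 and 12 tumours, and Dab1 held 16 beside 33. The median percent of members over 886 genes with at least 20 sites was 11.5%, against 5.33% in Trps1, 32% in Chl1 and 32.7% in Dab1. A transcript with no gene symbol on chromosome 6 held 22 members beside 131 TTAA sites.

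With a minimum of 10 reads, members hardly changed which tumours carried a hit in the recurrently hit genes. At 10 reads or more, Trps1 had TTAA sites in 42 resistant and 75 untreated tumours, and members added 0 and 1 tumours. Members added 0 tumours of either group to Kmt2c (26 and 27 tumours with TTAA sites), to Fbxw7, a ubiquitin ligase receptor gene (22 and 23), to Nf1, which encodes a Ras GTPase-activating protein (18 and 8), and to Nipbl, a cohesin loader gene (18 and 13). Members added 1 untreated tumour to Zfx, a zinc-finger gene (11 and 6 tumours with TTAA sites), and 1 to Runx1, a transcription factor gene (13 and 16). They added 1 resistant tumour to Zbtb20, a repressor gene (23 and 26). With any reads, members alone added 6 untreated tumours to Zfx, beside 17 with TTAA sites. A single Zfx position, TAGTttaa, had reads in 7 untreated libraries, with 1020 reads at most and a median of 1 in the others. Its 8 letters hold TTAA after the position. Members alone added 1 resistant and 2 untreated tumours to Nf1, and 2 of each group to Runx1. To Kmt2c they added 1 untreated tumour, to Zbtb20 1 resistant tumour, and to Trps1, Fbxw7 and Nipbl 0. These genes held 14 members in Nf1, 13 in Kmt2c, 11 in Fbxw7, 11 in Zbtb20, 5 in Runx1, 4 in Zfx and 2 in Nipbl. Their shares of tumours with members gave adjusted p-values of 0.256 to 1 in the 7 genes tested, and Nipbl, with members in 2 tumours, was not tested. The authors' deposited table lists Kmt2c at 82.35% of resistant tumours and 48.94% of untreated ones, without stating its counting rules.

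Some members were among the most-read sites of a tumour. Members elsewhere with at least 100 reads were found in 40 of 51 resistant tumours (338 pairs, 49 at most in a tumour) and in 60 of 94 untreated tumours (394 pairs, 49 at most). With 1 mismatch they were found in 34 and 55 tumours. The 10 most-read sites of a tumour included a member elsewhere in 4 resistant and 16 untreated tumours, and the difference was not tested. These ranks, and those below, count the shared TTAA positions, which had reads in 51 of 51 resistant and 0 of 94 untreated libraries. Their median reads in resistant libraries were 17066, 9783 and 12432, so they can lower the ranks of resistant members. TTATaatt on chromosome 10 (position 48262865) was the most-read site of untreated tumour 28, with 2085 of its 26708 reads (7.81%). TTAGaatt on chromosome 10 (position 19500177) had 5818 reads in resistant tumour 44 and was its 7th site. CTAAtgag on the X chromosome (position 77303220) had 1127 reads in untreated tumour 53 and was its 2nd site, CTAAtcta in Rai14 had 1588 reads in resistant tumour 9 and was its 9th, and TCAAagac in Acad8 had 1298 reads in resistant tumour 33 and was its 8th. The ATAAataa site in Foxo3, a forkhead transcription factor that acts below PI3K and AKT, had 1953 reads in untreated tumour 45 and was its 57th site.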

How the data were processed

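Insertion sites were measured by splinkerette PCR from the 5′ arm of the transposon and paired-end sequencing in 4 pools, per the labels' protocols. The deposited site table gave unscaled read counts per site and library. The authors' region table gave, for each gene, a percent of hit tumours per group. Coordinates are on mm10 (submitters' processing notes). The aligner and the site caller are not given in the sources used here. Of the deposited columns, 725 other columns of per-library values were not used. The position is the first base after the 4-base context. Members and lists were chosen with earlier results of these data known. The sites and genes named were the 12 most common contexts, the sites with the most reads or libraries, the 10 genes with members in the most tumours, the 10 with the smallest p and 8 recurrent genes; the further near-match sites, the classes and the promoter examples were chosen after their values were seen. Tumours of a mouse were averaged, and mice (25 resistant, 23 untreated) were permuted 100000 times, two-sided. Shares needed at least 20 members in a tumour, contexts 100 sites and genes 5 tumours. A title with an added R2 otherwise equals that of another untreated tumour of the same mouse, and both libraries were kept. The number of mice in the titles is below the stated 53, and the mouse of a resistant title with an extra digit was read by assumption. The p-values measure the spread between mice. Gene positions are those of the region table; exons and introns were not assigned. Promoter sequences came from RefSeq. An item that the naming rule picks is not reported here. On simulated data the gene test recovered 15 of 15 genes raised to a share of 40% in resistant tumours. It also recovered 15 of 15 other genes raised to 80%, with 2 false calls among the unchanged rest of 315 genes. The context test recovered 4 of 6 doubled contexts of 36, with 1 false call, and the distances of 3000 sites were all found. Tumours were drawn independently, without likeness within a mouse, and gene hits without differences in depth. Python 3.11.15, NumPy 2.4.6 and pandas 2.3.3 were used. Alternatives were read minimums, left-out chromosomes, libraries and sites, the unit of permutation and thinning.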

Additional observations from a re-analysis of the deposited data

Results flagged for a closer look

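Between members and TTAA sites, 4 differences were not the same in the resistant and the untreated group by a permutation of the group over mice (Benjamini-Hochberg over 5 such comparisons). The excess of members with a TTAA site within 10 bp was 25.8 percentage points in resistant and 16 in untreated mice, a difference of 9.8 (adjusted p = 0.0053). The deficit of members inside genes was -14.3 points in resistant and -20.2 in untreated mice, a difference of 5.87 (adjusted p = 0.0053). On chromosome 10 it was -10.6 and -14.4 points, a difference of 3.8 (adjusted p = 0.00538). The share of sites found in a single library was 6.8 points higher for members in resistant and 5.3 lower in untreated mice (-5.3), a difference of 12.1 (adjusted p = 0.0348). Libraries were deeper in the resistant group, with medians of 136932 and 48339 reads, and pairs in the 4 windows made up 9.59% of resistant and 27.2% of untreated pairs of members. The neighbour share itself differed by 1.27 points (p = 0.46) with libraries thinned to 10000 reads and by 7.02 (p = 0.104) without the windows. The part of either in the other three differences was not tested.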

How the results depend on the processing

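Alternatives concerning the windows, the AAAA sites, thinning, single libraries and the shared positions were chosen after seeing the data, as was the most-reads assignment for contexts and genes. The differences between members and TTAA sites in neighbours, reads, gene share and chromosome 10 share kept their direction and passed in every alternative run, though their sizes moved. For neighbours the direction was largely set by the letters, as said above. The gene share also depends on how the authors chose their gene regions, which is not known here. The difference in the share of sites was 1.91 with a minimum of 10 reads, 2.82 without the windows and 3.27 (p = 0.00088) without windows and AAAA sites. The share of reads was -0.453 under the most-reads assignment and 0.1 without the shared positions. The share with 1 mismatch was -9.11 with a minimum of 10 reads, -3.35 with tumours as units and -4.83 without AAAA sites. It was -7.39 after thinning and -4.87 without the shared positions. The same share was -0.836 under the most-reads assignment, -1.64 without the windows and -1.17 without windows and AAAA sites (permutation over mice, p = 0.719, 0.48 and 0.653). The neighbour share was 0.217 with a minimum of 10 reads, 1.25 with the common title forms, 2.28 under the most-reads assignment, 7.02 without the windows and 1.27 after thinning. The log2 ratio to the neighbour was -1.49 without chromosome 10 and -0.602 without AAAA sites, with or without the windows. It had no value with a minimum of 10 reads or after thinning, where too few tumours had 20 pairs. The single-library share (1 point, p = 0.724) was -14.5 with a minimum of 10 reads, -1.82 without chromosome 10, -0.898 with tumours as units, -3.88 without AAAA sites, -11.6 after thinning, 21.6 without the windows and 19.2 without windows and AAAA sites. Contexts called (6) numbered 0 with a minimum of 10 reads (1 of 7 at an unadjusted p under 0.05), 0 without chromosome 10 (7 of 32), 2 with the common title forms, 0 under the most-reads assignment (2 of 35), 1 without the windows, 2 after thinning, 1 without windows and AAAA sites and 2 without the shared positions. Genes called (2) numbered 1 without chromosome 10, which holds Cradd, 4 with tumours as units, 0 under the most-reads assignment (6 of 253) and 0 without the shared positions. They numbered 3 with a minimum of 10 reads (of 9 tested), 3 with the common title forms (of 257) and 3 after thinning (of 27). In each of these settings 1 of the genes called was lower in resistant tumours. Fewer sites or genes were tested under the minimum of reads and after thinning, and otherwise the cause was not tested. No paired analysis was possible because no mouse had tumours in both groups and the titles give no shared replicate numbers. Of the pairs of members, 68.4% rest on 1 read.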

Other observations

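Without the windows 83.3% of members and 61.7% of TTAA sites of a library had reads in no other library (mean over 47 mice, difference 21.6, sign-flip permutation p = 1e-05, higher in 46 of 47 mice). The difference was smaller at like read counts. Among sites with at most 1 read in a library, 99.6% of members elsewhere and 98.8% of TTAA sites were in 1 library. At 100 reads or more these shares were 58.8% and 51%. Of 566 members outside the windows with reads in exactly 2 libraries, 94 had both libraries from the same mouse (16.6%), and so had 2621 of 15746 TTAA sites (16.6%), while 2.16% of all pairs of libraries share a mouse. With the windows included, members with reads in both groups numbered 419 (1.5%), against 1402 TTAA sites (0.885%). Most of the 419 lay in the windows, where 498 of 978 members had reads in resistant and 821 in untreated libraries. Of the 22301 members elsewhere, 13401 had reads in resistant and 8970 in untreated libraries, so few had both. Of the members elsewhere, 1226 (5.5%) held TTAA within their 8 letters although their library listed no TTAA site within 10 bp, and 27 had a TTAA site of another library within 10 bp on the same strand. Windows of promoters held 0.275% of members and 0.551% of TTAA sites.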
